A study of Mus musculus with 8 samples.

Results

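The forkhead (Fox) and Sox transcription factor genes were examined in a pair of mouse kidney cell lines. The members are the protein-coding rows of the expression table whose symbol has the form of a Fox gene of classes A to S or of a numbered Sox gene. This gave 63 genes, 44 Fox and 19 Sox, among 21896 protein-coding rows and 55558 gene rows in all. Symbols and not measured values chose them, though earlier results of these data were known when the rule was set. RNA was sequenced from 3 libraries of mK4, a line the labels call differentiated towards epithelium, and 3 libraries of mK3, an uninduced line, both derived from metanephric mesenchyme, which gives rise to the nephrons. Both lines are labelled wild type and untreated, and both were kept in DMEM with 10% fetal bovine serum. ATAC-seq, which uses a transposase to cut accessible DNA, was done on 1 library of each line. Each state is represented by 1 cell line, so line and state cannot be told apart. Nothing in the labels tells if a line's libraries were separate cultures, and a p-value here reflects only how far these libraries spread, possibly for technical reasons.

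Fox proteins bind DNA through the forkhead domain, a winged helix, and some of them open closed chromatin. Sox proteins bind through an HMG box related to that of Sry, bend the DNA and usually act with partner factors. In the developing kidney Foxd1 marks stromal progenitors, Foxc1 and Foxc2 act in positioning the ureteric bud and later in podocytes, Sox8 and Sox9 act in ureteric branching, and Sox4 and Sox11 act in nephron formation.

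The libraries held 134359330 to 146187601 gene counts in mK4 and 133899125 to 141972545 in mK3, and the members took 0.0991% to 0.111% of them in mK4 and 0.0888% to 0.103% in mK3. Levels are CPM, read counts set relative to library size with TMM scaling, which are not adjusted for gene length, so levels are compared between lines and not between genes. Of the 8 epithelial markers, Cdh16, the kidney-specific cadherin gene, was higher, at 84.2 ± 4.41 CPM in mK4 and at 0 in mK3. The other markers were at or near 0 in mK4, against its label: Krt18, Cldn3 and Cldn4 had no count in either line, and Epcam had none in mK4 and 90 in 1 mK3 library. Cdh1 had 59, 0 and 59 counts in mK4 and none in mK3, Krt8 had 0, 16 and 0 in mK4 and none in mK3, and Krt19 had 26, 26 and 0 in mK4 and 92, 153 and 216 in mK3 and was not called. Of the 7 mesenchyme markers, 6 were lower in mK4 and Vim was higher. Of the 7 nephron progenitor markers 5 were tested, with 3 higher in mK4 (Eya1, Pax2 and Sall1) and 2 lower (Six2 and Osr1). The 5 leukocyte markers summed to 0.205 to 0.526 CPM in mK4 and 0.153 to 0.216 CPM in mK3, with Adgre1 at 0 in both lines. The 6 endothelial markers summed to 7.37 to 8.17 CPM in mK4, nearly all of it Cdh5, and to 3.6 to 4.63 CPM in mK3. In bulk RNA, fewer cells of a type and less RNA per cell cannot be told apart.

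A total of 19 members (30.2%) had no count in any of the 6 libraries, against 25.2% of protein-coding rows. They were Foxb1, Foxb2, Foxd3, Foxd4, Foxe1, Foxe3, Foxi1, Foxi2, Foxi3, Foxl2, Foxr1 and Foxr2, and Sox1, Sox3, Sox14, Sox17, Sox18, Sox21 and Sox30. Foxi1, which drives intercalated cells of the collecting duct, and Sox17 and Sox18, which act in endothelium, are among them. For counting error alone, a count of 0 allows up to 3 counts per library, at most 0.0220 CPM in mK4 and 0.0242 CPM in mK3. Libraries of 1 line could differ by more, as with Sox13, at 0, 81 and 0 counts in mK4. A further 8 members had counts but were too low to be tested: Foxa2, Foxh1, Foxn4, Foxs1, Sox2, Sox7, Sox10 and Sox15. Sox2, a pluripotency and neural progenitor factor, had 2, 2 and 23 counts in mK4 and none in mK3. The remaining 36 members passed the filter on low counts.

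Of the 36 tested members, 12 were higher and 6 were lower in mK4 at an adjusted p under 0.05 (edgeR's quasi-likelihood test, Benjamini-Hochberg over all genes). Over all 20405 tested genes 20.8% were higher and 19.5% lower, 40.3% in all, and over the 13840 tested protein-coding genes 24.7% were higher and 23.8% lower, 48.5% in all. The 50% of members called is close to the protein-coding background. By size, 41.7% of tested members were called with at least a 2-fold difference, against 25.4% of tested protein-coding genes. The median log2 fold change was 0.05 over the tested members and 0.02 over all tested genes, with genes at 0 in a line set at their bound. The higher members were Foxa1, Foxd1, Foxf1, Foxf2, Foxk1, Foxo3, Foxp2, Foxq1, Sox5, Sox6, Sox9 and Sox11. The lower members included Foxc2, Foxn2, Foxo1, Sox4 and Sox12. By family, 8 of 28 tested Fox genes were higher and 4 lower, and 4 of 8 tested Sox genes were higher and 2 lower.

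**Figure D1:**
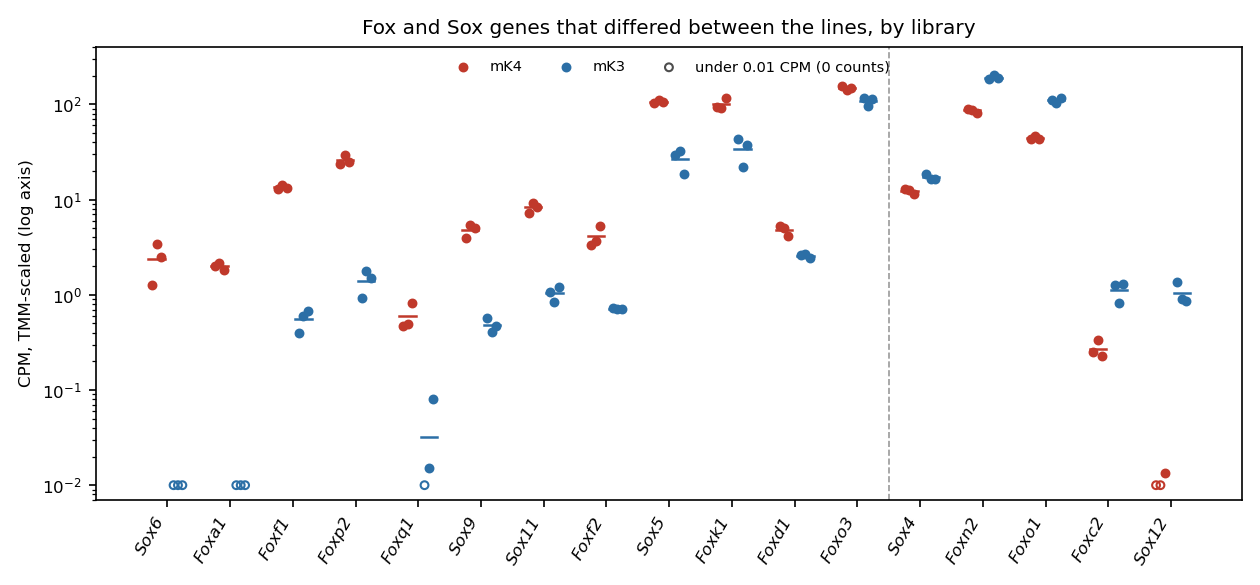
CPM after TMM scaling (log axis) of 17 members that differed, in each library, with mK4 left of mK3 for each gene; the short lines are means, and open circles mark libraries under 0.01 CPM, all of which had 0 counts. Genes left of the dashed line were higher in mK4, and Foxa1 and Sox6 had 0 counts in all 3 mK3 libraries.

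**Figure D2:**
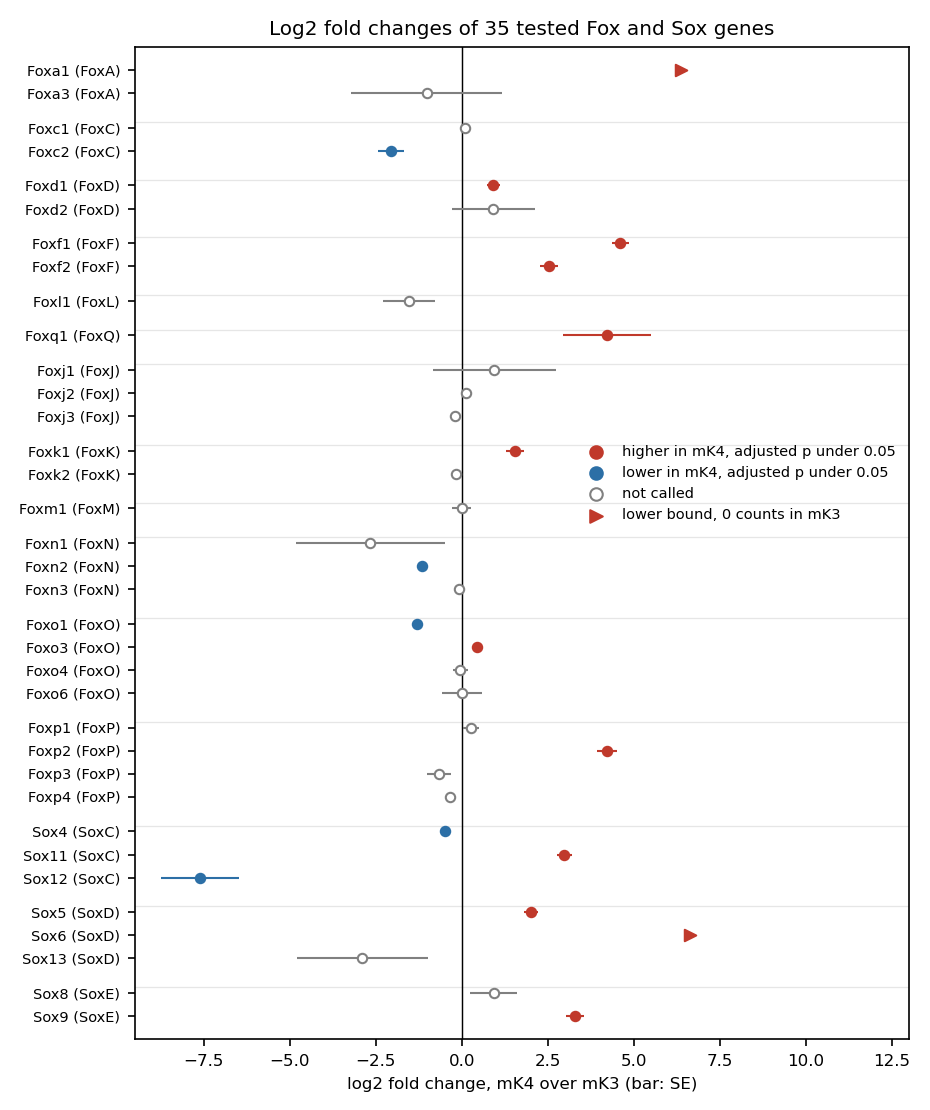
Log2 fold change, mK4 over mK3, of 35 tested members grouped by subfamily, with the standard error as a bar; filled points passed an adjusted p of 0.05 and triangles are lower bounds. Among the called members, those of the same subfamily lie on both sides of 0 in FoxO and SoxC.

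Foxf1 and Foxf2, which Hedgehog signals switch on in the mesenchyme of the gut and lung, were both higher in mK4. Foxf1 stood at 12.9, 14.2 and 13.3 CPM in mK4, against 0.397, 0.597 and 0.668 CPM in mK3. No mK3 library came near any mK4 library, and the log2 fold change was 4.61 (SE 0.25, adjusted p = 5.79e-05, edgeR). Foxf2 stood at 3.33, 3.63 and 5.32 CPM in mK4, against 0.724, 0.703 and 0.701 CPM in mK3. The lines did not overlap, with a log2 fold change of 2.53 (SE 0.269, adjusted p = 0.000705, edgeR). Of the Hedgehog list of receptors, signal carriers and Gli factors, 10 of 13 genes were tested, with 5 higher and 1 lower in mK4 and a median log2 fold change of 0.42, against 0.02 over all tested genes. Of the ligand genes listed, Shh had no count in any library, and Ihh had 9, 0 and 0 counts in mK4 and 30, 0 and 0 in mK3. Hhip, also not tested, had 21, 0 and 82 counts in mK4 and none in mK3. Cdon, a Hedgehog co-receptor gene, stood at 115.8 ± 3.62 CPM in mK4 and 35.2 ± 1.57 CPM in mK3 (adjusted p = 2.69e-05, edgeR). Ptch1, the Hedgehog receptor gene and itself a target, stood at 53.1 ± 1.94 CPM in mK4 and 16.7 ± 0.381 CPM in mK3, and Gli2, an effector gene, at 15.8 ± 1.49 CPM in mK4 and 1.91 ± 0.589 CPM in mK3 (adjusted p = 3.94e-05 and 0.000387, edgeR). The 1 lower gene was Gli3, at 416 ± 13 CPM in mK4 and 526 ± 32.9 CPM in mK3 (adjusted p = 0.00735, and 0.073 without scaling beyond library totals), and without mK3 replicate 2 the list had 2 lower genes.

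Foxf1 has close neighbours on chromosome 8 that did not move with it. Foxf1 lies at chr8:121084386-121088154, Foxc2 at chr8:121116171-121118895 and Foxl1 at chr8:121127685-121130644 (GRCm38.p6, the mm10 assembly), with 28.0 kb and 8.8 kb between them. Foxc2 stood at 0.249, 0.335 and 0.227 CPM in mK4, against 1.28, 0.816 and 1.29 CPM in mK3. It was lower in every mK4 library than in any mK3 library, with a log2 fold change of -2.06 (SE 0.391, adjusted p = 0.00714, edgeR). Foxl1, a forkhead gene of gut mesenchyme, had 4, 5 and 12 counts in mK4 and 20, 10 and 25 in mK3, which overlap (adjusted p = 0.157, edgeR). On the other side of Foxf1, 1276 bp from its lower-coordinate end, lies the long non-coding RNA gene Fendrr, named after its position next to Foxf1. Fendrr had 742, 707 and 536 counts in mK4 and 17, 0 and 34 counts in mK3, with a log2 fold change of 5.12 (SE 1.2, adjusted p = 0.0164, edgeR). That call was lost without mK4 replicate 1 (adjusted p = 0.05) and without mK3 replicate 1 (adjusted p = 0.0626). Fendrr is no member and was picked after its values were seen.

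The peak lists divide the same stretch of chromosome 8. The mK4 list has a peak 0.62 kb outside Foxf1, between it and Fendrr, with a fold enrichment of 4.74 over background, and the mK3 list has none within 1 kb of Foxf1. At Foxc2 the mK3 list has 3 peaks, with fold enrichments of 3.38, 3.42 and 2.94, and the mK4 list has none. Between and beyond these genes, 4 of the 6 mK4 peaks and 3 of the 7 mK3 peaks within 50 kb of the 3 genes overlap a peak of the other line. Over the whole lists, 16313 of 34710 mK4 peaks and 16170 of 22477 mK3 peaks do. Fold enrichments are the authors' own values per peak, and with 1 ATAC library per line a peak missing from a list has no replicate check. They ran higher in the mK4 list as a whole, with a median of 4.72, against 4.25 in the mK3 list.

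**Figure D3:**
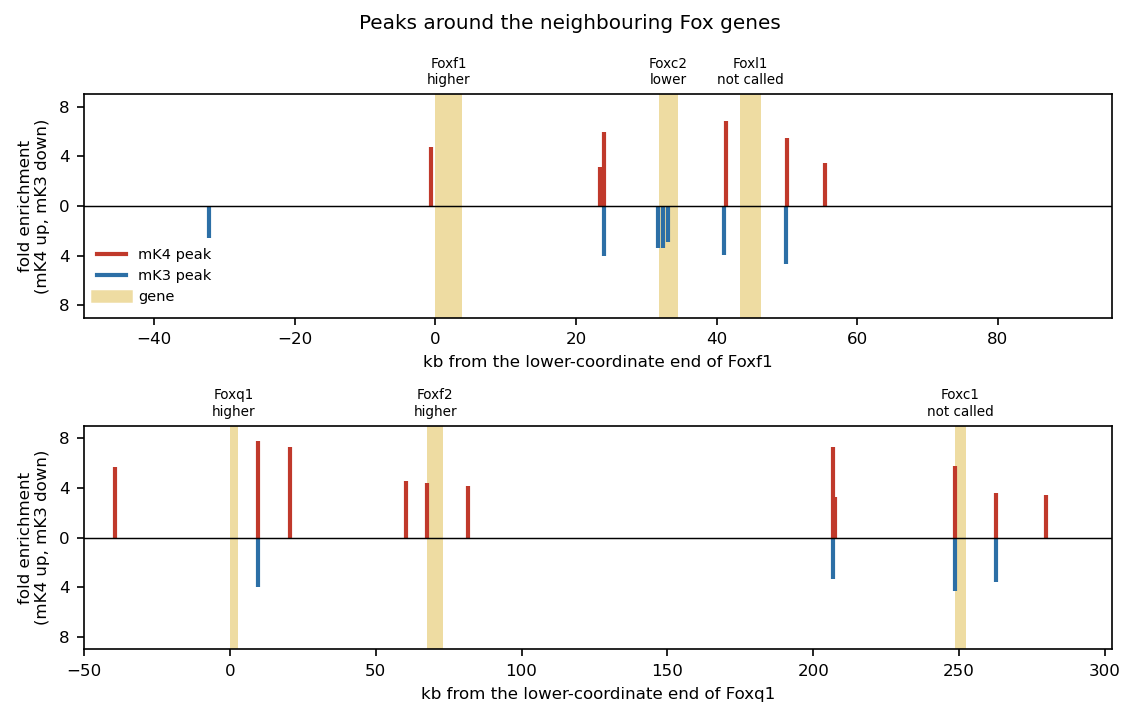
Deposited ATAC-seq peaks within 50 kb of each trio of neighbouring Fox genes, as the authors' fold enrichment of each peak (mK4 upwards, mK3 downwards) against the distance in kb from the lower-coordinate end of the first gene; shaded bands are genes with their expression call in mK4. Peaks of mK4 alone stand beside Foxf1 and Foxf2, and peaks of mK3 alone stand at Foxc2.

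The second trio lies on chromosome 13, with Foxq1 at chr13:31558170-31560976, Foxf2 at chr13:31625816-31631406 and Foxc1 at chr13:31806646-31810635. Foxq1, a factor of hair shaft and epithelial cells, had 64, 75 and 124 counts in mK4, against 0, 2 and 10 counts in mK3. The lines did not overlap, with a log2 fold change of 4.21 (SE 1.28, adjusted p = 0.0404, edgeR). The call was lost without mK3 replicate 2 (adjusted p = 0.132) and without mK4 replicate 1 (0.0877), 2 (0.0899) or 3 (0.111), over a range of 0.0024 to 0.132 in 12 alternatives. Foxc1 stood at 9.44, 10.4 and 9.63 CPM in mK4 and at 10.1, 8.45 and 8.98 CPM in mK3. The lines overlap, with a log2 fold change of 0.10 (SE 0.132, adjusted p = 0.602, edgeR), so Foxc1 was not called while its paralog Foxc2 was lower. Within 50 kb of this trio the mK4 list has 11 peaks and the mK3 list 4, and all 4 mK3 peaks overlap an mK4 peak. Over the whole mK3 list 16170 of 22477 peaks do. Of 12 podocyte genes, listed beside FoxC for its role there, 8 were tested, 1 was higher and none was lower, with a median of -0.04. Podxl, the higher one, encodes the surface protein podocalyxin and stood at 59.0 ± 8.49 CPM in mK4 and 0.325 ± 0.284 CPM in mK3 (adjusted p = 0.00195, edgeR). The count was 2 without mK3 replicate 1 and without mK4 replicate 2 or 3.

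The promoters of Foxf2, Foxc1 and Foxd1 are shown because the peak lists bear on them differently: Foxf2 has a peak in mK4 alone, and the other 2 in both lines. Each run is 250 bases before to 50 after the start of the RefSeq transcript (GRCm38.p6, plus strand), 5′ to 3′, with capitals for bases inside an mK4 peak.
Foxf2, chr13:31625566-31625865: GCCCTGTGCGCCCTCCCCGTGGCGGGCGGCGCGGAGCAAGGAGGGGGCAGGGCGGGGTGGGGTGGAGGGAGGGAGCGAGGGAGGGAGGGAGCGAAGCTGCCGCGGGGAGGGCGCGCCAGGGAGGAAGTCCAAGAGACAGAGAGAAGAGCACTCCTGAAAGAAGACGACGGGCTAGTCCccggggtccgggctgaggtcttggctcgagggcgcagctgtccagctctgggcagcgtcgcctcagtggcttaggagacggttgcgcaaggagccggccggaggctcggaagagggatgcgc
Foxc1, chr13:31806396-31806695: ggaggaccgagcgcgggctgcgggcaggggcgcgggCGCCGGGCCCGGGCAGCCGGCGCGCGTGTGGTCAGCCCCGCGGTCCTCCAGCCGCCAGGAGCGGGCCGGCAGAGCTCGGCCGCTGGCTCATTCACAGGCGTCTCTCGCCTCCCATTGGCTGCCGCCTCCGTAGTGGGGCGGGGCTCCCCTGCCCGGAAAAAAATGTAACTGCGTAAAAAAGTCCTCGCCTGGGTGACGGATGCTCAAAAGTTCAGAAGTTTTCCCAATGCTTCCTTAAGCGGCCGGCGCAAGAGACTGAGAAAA
Foxd1, chr13:98353995-98354294: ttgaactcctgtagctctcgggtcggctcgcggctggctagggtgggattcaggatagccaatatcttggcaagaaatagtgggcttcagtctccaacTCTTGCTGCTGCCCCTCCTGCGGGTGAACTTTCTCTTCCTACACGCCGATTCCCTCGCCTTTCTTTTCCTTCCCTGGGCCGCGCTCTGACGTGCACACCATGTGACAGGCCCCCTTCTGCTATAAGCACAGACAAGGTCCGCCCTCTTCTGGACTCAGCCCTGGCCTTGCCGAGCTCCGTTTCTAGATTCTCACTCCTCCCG
The mK4 peaks cover 178 bases of the Foxf2 window, which stop short of the start site, 264 of the Foxc1 window and 202 of the Foxd1 window. All are rich in CpG, with 27, 32 and 15 CpG dinucleotides, against a median of 21 over the 51 member promoters in the table and 7 over all 32851. None of the 3 holds the forkhead letters TGTTTAC on either strand, which 3.65% of all promoters of this length hold. None holds AACAAAG, a form of the SOX motif that 5.85% of all promoters hold. None holds its other form searched, AACAATG, which 3.78% hold and which shares its opening letters with the first. A lack of these letters in the window says nothing of binding elsewhere.

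Foxd1, the marker of stromal progenitors, stood at 5.32, 5.03 and 4.18 CPM in mK4, against 2.59, 2.7 and 2.41 CPM in mK3. Every mK4 library was above every mK3 library, with a log2 fold change of 0.92 (SE 0.182, adjusted p = 0.00848, edgeR). Its start site had a peak in both lists, with a fold enrichment of 4.89 in mK4 and 4.17 in mK3, beside list medians of 4.72 and 4.25. The stroma genes listed beside it went mostly the other way: of 14 tested of 15 listed, 2 were higher and 10 lower in mK4, with a median log2 fold change of -1.63. Fat4, the stromal cadherin gene, stood at 23.0 ± 0.576 CPM in mK4 and 264 ± 10.05 CPM in mK3, and Pdgfrb at 51.2 ± 2.63 CPM in mK4 and 192 ± 10.9 CPM in mK3 (adjusted p = 4.4e-06 and 2.45e-05, edgeR). Snai2, a mesenchymal repressor gene, stood at 1.14 ± 0.143 CPM in mK4 and 22.1 ± 2.47 CPM in mK3 (adjusted p = 2.45e-05, edgeR). The higher ones were Aldh1a2, a retinoic acid synthesis gene with 185, 40 and 491 counts in mK4 and 0 in mK3 (adjusted p = 0.012, edgeR), and Tbx18, at 46.8 ± 8.98 CPM in mK4 and 31.5 ± 2.37 CPM in mK3 (adjusted p = 0.0266, edgeR). Tbx18 lost its call without mK3 replicate 2 (adjusted p = 0.0826), mK3 replicate 3 (0.0795) or mK4 replicate 1 (0.0611), and the list had 1 higher gene without mK3 replicate 2 or mK4 replicate 1. Foxd2 had 20, 10 and 12 counts in mK4 and 10, 11 and 0 in mK3 and was not called.

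Foxa1, which opens chromatin in endoderm and in duct epithelia, had 276, 327 and 272 counts in mK4 (2.02, 2.15 and 1.81 CPM) and 0 in every mK3 library. For counting error alone, that is at least 82.5-fold higher in mK4 against the floor of 3 counts per library (adjusted p = 0.000433, edgeR). The mK4 list has 5 peaks within 50 kb of Foxa1, and the mK3 list none. The related Foxa2 had 4, 14 and 0 counts in mK4 and 0, 4 and 0 in mK3, and Foxa3 had 31, 0 and 0 in mK4 and 11, 51 and 0 in mK3. Of 10 endoderm genes listed with FoxA, 5 were tested, with 2 higher and 1 lower. Alb, the albumin gene, averaged 0.393 ± 0.26 CPM in mK4 and was at 0 in mK3 (adjusted p = 0.00748, edgeR). The lower one, Gata6, an endoderm factor gene, stood at 1.59 ± 0.193 CPM in mK4 and 5.62 ± 0.76 CPM in mK3 (adjusted p = 0.000883, edgeR).

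Among the FoxO genes, whose products Akt keeps out of the nucleus when insulin or growth factor signals are present, Foxo1 and Foxo3 differed in opposite directions. Foxo1 stood at 43.3, 47.0 and 43.3 CPM in mK4, against 111, 103 and 115 CPM in mK3. It was lower in every mK4 library, with a log2 fold change of -1.30 (SE 0.079, adjusted p = 8.37e-05, edgeR). Foxo3 stood at 155, 142 and 148 CPM in mK4, against 116, 96.5 and 113 CPM in mK3. It was higher in every mK4 library, by 0.45 on the log2 scale (SE 0.0894, adjusted p = 0.00841, edgeR). Foxo4 stood at 5.71, 5.22 and 5.96 CPM in mK4 and 7.52, 5.06 and 4.9 CPM in mK3, which overlap (adjusted p = 0.881, edgeR). Foxo6 averaged 0.792 ± 0.569 CPM in mK4 and 0.790 ± 0.112 CPM in mK3 and was not called.

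The Foxo1 start site is shown because its peak was listed in mK4 alone and its level was lower there. The mK4 list has a peak there, with a fold enrichment of 4.92 and its summit 20 bp from the start, and the mK3 list has none within 1 kb. Over the 854 tested genes of chromosome 3 the median log2 fold change was 0.69, against 0.02 over all tested genes. Whether that shift bears on the peak was not tested. Capitals mark the 197 bases inside the mK4 peak (plus strand, GRCm38.p6, RefSeq).
Foxo1, chr3:52268087-52268386: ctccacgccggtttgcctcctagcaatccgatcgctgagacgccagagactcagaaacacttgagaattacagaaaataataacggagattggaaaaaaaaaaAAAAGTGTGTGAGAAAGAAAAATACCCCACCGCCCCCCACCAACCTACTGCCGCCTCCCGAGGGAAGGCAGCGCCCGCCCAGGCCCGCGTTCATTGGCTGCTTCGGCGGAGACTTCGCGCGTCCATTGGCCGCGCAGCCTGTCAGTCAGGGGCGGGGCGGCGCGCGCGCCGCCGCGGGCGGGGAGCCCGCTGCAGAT
The window holds 31 CpG dinucleotides, 5 matches of the GC box letters GGGCGG and 3 of CCAAT on either strand, which 35.7% and 37.4% of all promoters hold at least once. Of the 51 member promoters, 62.7% and 49% do. At Foxo3 both lists have 2 peaks within 1 kb of the start, the strongest with a fold enrichment of 6.18 in mK4 and 5.26 in mK3.

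Genes upstream of FoxO were not shifted one way. Of 19 regulators of FoxO, all tested, 5 were higher and 4 lower in mK4, with a median of 0.29, and without scaling beyond library totals 8 were higher. Skp2, which encodes a ubiquitin ligase subunit that targets Foxo1, stood at 240.0 ± 10.9 CPM in mK4 and 63.7 ± 3.48 CPM in mK3 (adjusted p = 2.2e-05, edgeR). Igf1r, the IGF1 receptor gene, stood at 310 ± 9.59 CPM in mK4 and 71.1 ± 11.9 CPM in mK3, and Akt1 at 72.7 ± 2.58 CPM in mK4 and 179 ± 16.1 CPM in mK3 (adjusted p = 8.16e-05 and 0.000108, edgeR). The adaptor genes split, with Irs2 higher at 38.5 ± 7.47 CPM in mK4 and 14.9 ± 3.65 CPM in mK3, and Irs1 lower at 112 ± 4.77 CPM in mK4 and 226 ± 3.57 CPM in mK3 (adjusted p = 0.0043 and 7.85e-05, edgeR). Pik3r1, a PI3 kinase regulatory subunit gene, was lower, at 44.7 ± 1.03 CPM in mK4 and 72.8 ± 7.26 CPM in mK3 (adjusted p = 0.00174, edgeR). Of 19 tested FoxO targets, 7 were higher and 6 lower, with a median of 0.26, and 4 were higher without mK4 replicate 1. Sesn3, a stress-response gene, stood at 59.9 ± 4.49 CPM in mK4 and 17.9 ± 1.28 CPM in mK3, and Bcl6, a repressor gene, at 13.5 ± 0.659 CPM in mK4 and 3.82 ± 0.286 CPM in mK3 (adjusted p = 7.3e-05 and 0.000172, edgeR). Txnip, a thioredoxin inhibitor gene, stood at 58.3 ± 2.82 CPM in mK4 and 24.7 ± 1.64 CPM in mK3 (adjusted p = 0.000158, edgeR). Cited2 stood at 14.8 ± 0.321 CPM in mK4 and 47.9 ± 5.56 CPM in mK3, and Sod2, the mitochondrial superoxide dismutase gene, at 33.9 ± 1.79 CPM in mK4 and 58.9 ± 1.80 CPM in mK3 (adjusted p = 0.000106 and 0.000536, edgeR). Rictor, an mTOR partner gene, was lower too, at 242.4 ± 9.45 CPM in mK4 and 384 ± 5.63 CPM in mK3 (adjusted p = 0.00026, edgeR).

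Foxm1, which drives the genes of the G2 and M phases, stood at 17.2, 18.2 and 30.3 CPM in mK4 and 26.3, 17.1 and 22.4 CPM in mK3. These overlap (adjusted p = 0.998, edgeR), and the standard error of the log2 fold change was 0.271. Among 18 of its targets, all tested, 3 were higher and 2 lower, with a median of -0.03. The centromere protein genes Cenpf and Cenpe were higher, at 78.3 ± 3.30 CPM in mK4 and 26.8 ± 3.39 CPM in mK3 for Cenpf and at 132.5 ± 8.01 CPM in mK4 and 63.3 ± 4.76 CPM in mK3 for Cenpe (adjusted p = 0.00016 and 0.000253, edgeR). Birc5, which encodes survivin, was lower at 13.7 ± 0.745 CPM in mK4 and 26.6 ± 1.88 CPM in mK3 (adjusted p = 0.000776, edgeR). Of the mitotic kinase and kinesin genes, Plk1 was higher at 53.2 ± 3.67 CPM in mK4 and 35.6 ± 1.64 CPM in mK3, and Kif20a was lower at 60.04 ± 2.23 CPM in mK4 and 89.7 ± 5.56 CPM in mK3 (adjusted p = 0.003 and 0.00173, edgeR).

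The widely expressed FoxK, FoxN and FoxJ genes changed in 2 cases. Foxk1, which with Foxk2 acts in glucose metabolism and autophagy control, stood at 93.6, 92.4 and 115 CPM in mK4, against 43.7, 21.8 and 37.6 CPM in mK3. The lines did not overlap, with a log2 fold change of 1.55 (SE 0.265, adjusted p = 0.00495, edgeR). Within 50 kb of Foxk1 the mK4 list has 11 peaks and the mK3 list 3, all overlapping mK4 peaks. Such overlap holds for 16170 of all 22477 mK3 peaks. Foxk2 stood at 173, 187 and 192 CPM in mK4 and 208, 195 and 213 CPM in mK3. The mK4 libraries were all below those of mK3, yet Foxk2 was not called (adjusted p = 0.125, edgeR), and its start site had a peak in the mK4 list alone. Foxn2 stood at 89.2, 88.0 and 81.5 CPM in mK4, against 182, 202 and 189 CPM in mK3. It was lower in every mK4 library, with a log2 fold change of -1.15 (SE 0.0719, adjusted p = 9.27e-05, edgeR), and its gene ends had peaks of like strength in both lists, 7.53 in mK4 and 7.77 in mK3. Foxn3, a checkpoint repressor gene, stood at 66.8, 70.4 and 72.9 CPM in mK4 and 72.3, 79.1 and 72.5 CPM in mK3, which overlap (adjusted p = 0.388, edgeR). Foxj2 stood at 12.4, 13.9 and 14.4 CPM in mK4 and 14.7, 10.9 and 11.8 CPM in mK3, which overlap (adjusted p = 0.58, edgeR). Foxj3 stood at 47.5, 47.7 and 46.6 CPM in mK4 and 54.2, 56.6 and 53.1 CPM in mK3, which do not overlap, and its adjusted p was 0.0566 (edgeR), 0.0415 with RLE scaling and 0.000498 by DESeq2.

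Foxj1, the switch for motile cilia, was low, with 33, 20 and 0 counts in mK4 and with 23, 4 and 0 in mK3, and was not called. Of 18 motile cilia genes found of 20 listed, 7 were tested, with 2 higher and none lower, and 1 lower without mK3 replicate 3. Rfx3, a ciliogenesis factor gene, stood at 369 ± 3.19 CPM in mK4 and 174 ± 6.08 CPM in mK3, and Dnah11, a dynein heavy chain gene, at 2.40 ± 0.123 CPM in mK4 and 0.738 ± 0.20 CPM in mK3 (adjusted p = 4.53e-05 and 0.00488, edgeR). Foxi1 was at 0 in all 6 libraries. Of 10 intercalated-cell genes listed with it 6 were tested, and 4 of these were higher and none was lower. Of the untested ones, Rhcg, Slc4a1 and Slc4a9 had no count in any library. Atp6v1b1 had 0, 51 and 0 counts in mK4 and none in mK3. Tfcp2l1, a collecting duct factor gene, stood at 58.9 ± 2.39 CPM in mK4 and 0.502 ± 0.424 CPM in mK3, and Car2, the cytosolic carbonic anhydrase gene, at 2.58 ± 0.0635 CPM in mK4 and 0.130 ± 0.0899 CPM in mK3 (adjusted p = 0.000465 and 0.00144, edgeR). Slc26a4, which encodes the anion exchanger pendrin, averaged 0.56 ± 0.325 CPM in mK4 and was at 0 in mK3 (adjusted p = 0.00477, edgeR).

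In the FoxP group Foxp2 alone passed the test. Foxp2, known for its role in speech and vocal learning and in lung epithelium, stood at 23.8, 29.3 and 24.5 CPM in mK4, against 0.926, 1.76 and 1.5 CPM in mK3. The lines did not overlap, with a log2 fold change of 4.21 (SE 0.28, adjusted p = 0.000118, edgeR). Neither list has a peak within 50 kb of its gene. Foxp1 stood at 57.8, 50.1 and 79.9 CPM in mK4 and 65.7, 41.7 and 49.2 CPM in mK3, which overlap (adjusted p = 0.427, edgeR). Foxp4 stood at 24.5, 27.8 and 24.2 CPM in mK4 and 32.9, 28.2 and 35.1 CPM in mK3, and its adjusted p was 0.0697 (edgeR), 0.0434 without mK3 replicate 2 and 0.0241 by DESeq2. Foxp3, the factor of regulatory T cells, stood at 1.60, 1.73 and 1.01 CPM in mK4 and 3.12, 1.88 and 1.88 CPM in mK3 (adjusted p = 0.181, edgeR), while the T-cell gene Cd3e had a mean of 0.0147 CPM in mK4 and 0 in mK3.

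The SoxC genes, which act in progenitors of many tissues and share closely related HMG boxes, moved apart. Sox11 stood at 7.29, 9.13 and 8.33 CPM in mK4, against 1.08, 0.839 and 1.22 CPM in mK3. It was higher in every mK4 library, with a log2 fold change of 2.98 (SE 0.22, adjusted p = 0.000168, edgeR). Sox4 stood at 12.8, 12.6 and 11.6 CPM in mK4, against 18.6, 16.5 and 16.6 CPM in mK3. It was lower in every mK4 library, with a log2 fold change of -0.49 (SE 0.111, adjusted p = 0.0146, edgeR), a call lost without scaling beyond library totals (adjusted p = 0.0528), which moved the median of all genes by 0.106. Sox12 had 0, 0 and 2 counts in mK4, against 197, 120 and 108 counts in mK3. That is 233-fold lower in mK4, with a 95% exact interval of 64.1 to 1930 for counting error (adjusted p = 0.00249, edgeR).

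Peaks at the SoxC start sites fell into 3 patterns. Sox11 had a peak in the mK4 list alone, with a fold enrichment of 7.52, the strongest at any start site of a member with no mK3 peak. Sox4 had a peak in both lists, with a fold enrichment of 4.73 in mK4 and 5.67 in mK3. Sox12 had one in the mK3 list alone, at 4.64, with its summit 838 bp from the start. The Sox11 promoter is shown because its whole window lies in a peak of mK4 and in none of mK3, so all 300 bases are in capitals (minus strand, GRCm38.p6, RefSeq).
Sox11, chr12:27342669-27342968: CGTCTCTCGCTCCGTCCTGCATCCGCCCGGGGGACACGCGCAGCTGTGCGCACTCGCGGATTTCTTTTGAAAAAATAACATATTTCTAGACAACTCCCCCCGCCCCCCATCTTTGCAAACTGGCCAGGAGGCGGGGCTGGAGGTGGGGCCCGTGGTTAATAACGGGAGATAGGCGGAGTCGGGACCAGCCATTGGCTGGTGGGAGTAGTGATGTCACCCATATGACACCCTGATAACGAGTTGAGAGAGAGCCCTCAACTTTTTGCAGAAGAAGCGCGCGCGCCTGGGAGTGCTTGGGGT
It holds 21 CpG dinucleotides, 2 matches of the GC box letters GGGCGG and 1 of CCAAT, and no match of the forkhead and SOX letters searched. Of 9 tested of 10 genes listed with SoxC, 6 were higher and 1 was lower, with a median of 1.70. Ccnd1, the cyclin D1 gene, stood at 27.6 ± 1.12 CPM in mK4 and 7.70 ± 0.417 CPM in mK3, and Tead2, a Hippo pathway factor gene, at 14.8 ± 4.82 CPM in mK4 and 4.56 ± 0.522 CPM in mK3 (adjusted p = 6.49e-05 and 0.00299, edgeR). Mycn, a proto-oncogene of progenitors, averaged 1.46 ± 0.439 CPM in mK4 and was at 0 in mK3 (adjusted p = 0.00099, edgeR). Marcks was the lower one, at 26.6 ± 1.07 CPM in mK4 and 219 ± 8.03 CPM in mK3 (adjusted p = 6.51e-06, edgeR).

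Sox9, Sox5 and Sox6, which together switch on cartilage genes in the growing skeleton, were all higher in mK4. Sox9, which also acts in ureteric tips and in repair of the injured tubule, stood at 3.91, 5.37 and 4.98 CPM in mK4, against 0.571, 0.408 and 0.467 CPM in mK3. The lines did not overlap, with a log2 fold change of 3.30 (SE 0.262, adjusted p = 0.000223, edgeR). Sox5, a SoxD factor gene without an activation domain of its own, stood at 104, 111 and 107 CPM in mK4, against 29.3, 32.0 and 18.6 CPM in mK3. It was higher in every mK4 library, with a log2 fold change of 2.01 (SE 0.209, adjusted p = 0.000689, edgeR). Sox6, also of SoxD, had 171, 515 and 370 counts in mK4 (1.25, 3.38 and 2.46 CPM) and 0 in every mK3 library. For counting error alone, that is at least 98.0-fold higher in mK4 against the floor (adjusted p = 0.00139, edgeR). The third SoxD gene, Sox13, had 0, 81 and 0 counts in mK4 and 188, 279 and 71 in mK3 (adjusted p = 0.282, edgeR). Without mK4 replicate 2, which holds all of its mK4 counts, its adjusted p was 0.00797. Sox8, the SoxE partner of Sox9 in ureteric branching, had 56, 34 and 53 counts in mK4 and 14, 42 and 13 in mK3, which overlap (adjusted p = 0.328, edgeR).

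Around Sox9, Sox5 and Sox6 the mK4 list held the greater number of peaks. That list is the longer one, and 76.5% of all protein-coding genes higher in mK4 had more mK4 peaks within 50 kb. Within 50 kb of Sox9 it has 7 peaks and the mK3 list 1, although both lists have a peak at a gene end, with fold enrichments of 7.21 in mK4 and 6.75 in mK3. Over and around the long Sox5 gene there are 26 peaks in mK4 and 8 in mK3. Each of the 8 overlaps an mK4 peak, as do 16170 of all 22477 mK3 peaks. Around Sox6 the mK4 list has 2 and the mK3 list none. Neither list has a peak within 1 kb of an annotated start site of Sox5 or Sox6. Sox6 lies on chromosome 7, where the median log2 fold change over 1204 tested genes was 0.6, against 0.02 over all tested genes. The intronic transcript Sox5it had 68, 92 and 175 counts in mK4 and 3, 18 and 17 in mK3 (log2 fold change 2.94, SE 0.819, adjusted p = 0.0298, edgeR), a call lost without any 1 library other than mK3 replicate 1, with an adjusted p of up to 0.0966. Sox5it was picked after its values were seen, and the sources give no strand setting for the counting, so reads of Sox5 and Sox5it, or of Foxf1 and Fendrr, may not be fully told apart.

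Cartilage genes gave a mixed count. Of 10 tested of 15 listed with Sox9, 3 were higher and 1 lower, with a median of -0.39. The defining markers Col2a1, Comp, Acan and Matn1 summed to 0.0788 to 0.908 CPM in mK4 and 0 to 0.320 CPM in mK3. Xylt1 and Chst11, genes of enzymes that build proteoglycan sugar chains, were higher, with Xylt1 at 62.2 ± 11.5 CPM in mK4 and 9.26 ± 2.30 CPM in mK3 and Chst11 at 289 ± 8.48 CPM in mK4 and 133.6 ± 19.2 CPM in mK3 (adjusted p = 0.000277 and 0.000564, edgeR). Col27a1, a fibrillar collagen gene, averaged 2.19 ± 1.07 CPM in mK4 and 0.526 ± 0.0971 CPM in mK3 (adjusted p = 0.0133, and 0.0508 without mK3 replicate 2, edgeR). The lower one, Col11a1, lost its call without mK3 replicate 1 (adjusted p = 0.118), mK3 replicate 2 (0.111) or mK4 replicate 1 (0.0972), 2 (0.0832) or 3 (0.123), and the list then had no lower gene without mK3 replicate 1 or 2 or mK4 replicate 3. Of 10 ureteric tip genes listed with SoxE, all tested, 5 were higher and 1 lower, with a median of 0.83. Dusp6, a feedback phosphatase gene of ERK signals, stood at 34.3 ± 1.78 CPM in mK4 and 4.81 ± 0.903 CPM in mK3 (adjusted p = 7.52e-05, edgeR). Etv4, a target of Ret signals in the tip, stood at 25.8 ± 3.78 CPM in mK4 and 6.68 ± 0.501 CPM in mK3 (adjusted p = 0.000204, edgeR), while Ret itself was at 0 in mK4 and had 14, 180 and 55 counts in mK3 (adjusted p = 0.0188, and 0.0518 without mK3 replicate 3, which leaves no lower gene); without mK4 replicate 1 the list had 2.

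Lists beside the Sox genes that were silent or near 0 gave mixed counts. Of 14 endothelial genes listed with SoxF, whose members Sox17 and Sox18 were at 0 and Sox7 had 0, 9 and 0 counts in mK3 alone, 8 were tested, with 2 higher and 3 lower in mK4. Cdh5, the endothelial cadherin gene, was at 7.35 ± 0.402 CPM in mK4 and at 0 in mK3, and Tek and Kdr, receptor genes of endothelium, were at 0 in mK4 and at 1.78 ± 0.392 and 1.44 ± 0.31 CPM in mK3. Egfl7, a secreted endothelial factor gene, was higher at 6.08 ± 0.102 CPM in mK4 and 3.43 ± 0.585 CPM in mK3, and Nrp1, a semaphorin and VEGF receptor gene, was lower at 332 ± 9.09 CPM in mK4 and 402 ± 3.07 CPM in mK3 (adjusted p = 0.0125 and 0.00604, edgeR), a call lost for Nrp1 without scaling beyond library totals (adjusted p = 0.0928). Sox10, the neural crest factor gene, had 7 counts in mK3 replicate 1 and none elsewhere. Of 5 tested of 10 genes listed with it, 1 was higher and 1 lower, with Erbb3, a receptor gene of glia and of epithelia, at 21.5 ± 2.71 CPM in mK4 and 5.05 ± 0.918 CPM in mK3 (adjusted p = 0.000312, edgeR). The lower one was Mitf, at 1.38 ± 0.589 CPM in mK4 and 8.07 ± 2.57 CPM in mK3 (adjusted p = 0.00505, edgeR). These counts changed by 1 gene without mK3 replicate 3 (2 higher) and without mK4 replicate 3 (2 lower). Of 10 pluripotency genes listed with Sox2 only Klf4 was high enough to be tested, and its lower level in mK4 (2.24 ± 0.315 CPM, against 3.91 ± 0.591 CPM in mK3, adjusted p = 0.029, edgeR) lost its call without 4 of the 6 libraries in turn, with an adjusted p of up to 0.0865.

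Over all 63 members, 21 had a peak within 1 kb of a start site in the mK4 list and 18 in the mK3 list, counting either gene end for the 22 members whose start site is not in the promoter table. Among protein-coding genes with a position the shares were 46.0% in mK4 and 41.7% in mK3. For some members the start in that table lies inside the gene, so a peak at the outer gene end could be missed. The Sox5 window is chr6:143947057-143947356, in a minus-strand gene at chr6:143828425-144782287. For Foxn3 the window is chr12:99450025-99450324, in a minus-strand gene at chr12:99190081-99563667. Both lists had a peak for 14 members, the mK4 list alone for 7 and the mK3 list alone for 4. No member at 0 in all libraries had one, as for 98.1% of such protein-coding genes. Of the 12 members higher in mK4, 4 had a peak in the mK4 list alone (Foxa1, Foxf1, Foxf2 and Sox11) and none in the mK3 list alone; over all protein-coding genes higher in mK4 the shares were 18.2% and 2.22%. Of the 6 lower members, 3 had one in the mK3 list alone, Foxc2 and Sox12 among them, and 1, Foxo1, had one in the mK4 list alone, against 9.55% and 5.79% of lower protein-coding genes. Neither list had a peak for 5 of the 12 higher members (41.7%: Foxk1, Foxp2, Foxq1, Sox5 and Sox6) and for 0 of the 6 lower ones. The shares over higher and lower protein-coding genes were 23.2% and 23.9%. The mK4 list is the longer one, with 34710 peaks on the numbered and sex chromosomes against 22477 in mK3. Within 50 kb, 10 of the 12 higher members had more peaks in the mK4 list, as did 76.5% of higher protein-coding genes, and 1 of the 6 lower members did, as did 54.8% of lower protein-coding genes.

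**Figure D4:**
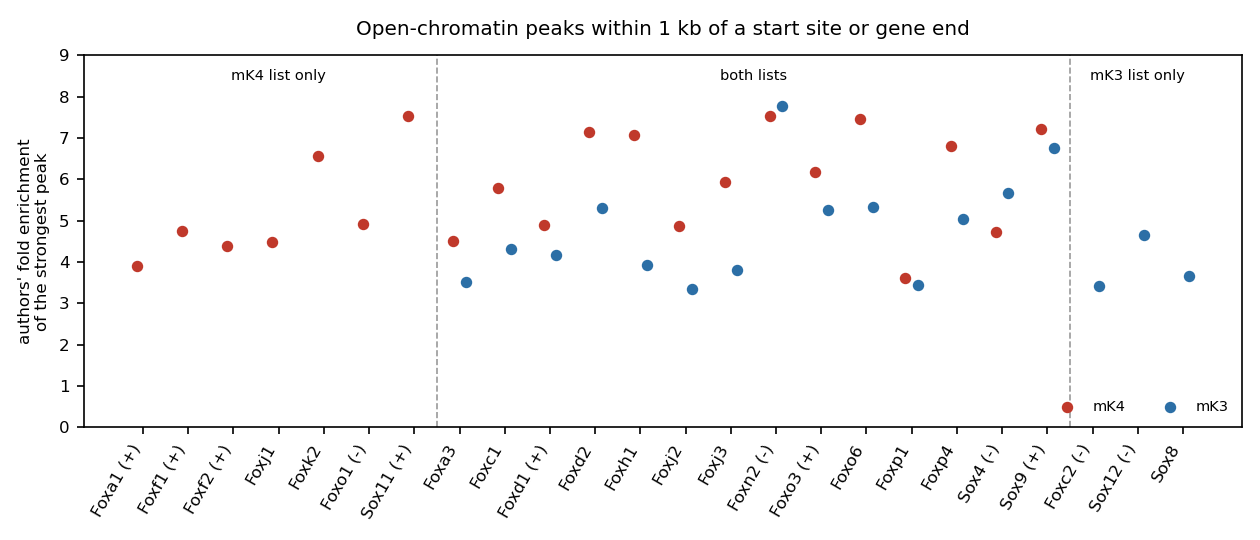
Authors' fold enrichment of the strongest deposited ATAC-seq peak within 1 kb of a start site or gene end, for 24 members with a peak in either list, mK4 left of mK3; a plus or minus marks members higher or lower in mK4 RNA. Of the 7 members with a peak in the mK4 list alone 4 were higher in mK4, and of the 3 drawn with a peak in the mK3 list alone 2 were lower.

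Uneven zeros limit the low members. Foxa3, Foxn1 and Foxn4 in mK3 and Sox13 in mK4 each had a library at 0 and another of the same line with at least 40 counts. Foxn1, the thymic epithelium factor gene, had 0, 19 and 0 counts in mK4 and 0, 59 and 45 in mK3.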

How the data were processed

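The authors deposited 1 table of raw counts in whole numbers, and a peak list per line with 4 values per peak from the authors' peak caller, by the column order of its format: fold enrichment (a ratio), -log10 p, -log10 q and a display score. The submitters' processing notes name MACS3, Bowtie2, deepTools, bedtools, SAMtools, HTSeq 2.0.2, STAR 2.7.10a and the build mm10, without saying which made which values. The labels describe strand-specific libraries from RNA depleted of ribosomal RNA.

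All gene rows were fitted together with edgeR 4.0.16 in R 4.3.3 (filterByExpr, TMM, robust quasi-likelihood test, mK4 against mK3), with Benjamini-Hochberg adjustment over 20405 genes and calls at 0.05. The standard error is the size of the log2 fold change divided by the root of its F. A gene at 0 throughout a line gets a bound from 3 counts in each library; such bounds, and intervals, hold for counting error alone. The steps were also run on simulated data, with far fewer changed genes than were called here. That run gives no error rate for these data. Alternatives were RLE scaling, no scaling, DESeq2 1.42.0, other filters, protein-coding rows only, a replicate block and leaving out each library.

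Peaks of the numbered and sex chromosomes were set against start sites of the RefSeq promoter table (41 members) or the ends of RefSeq genes (22 members), both GRCm38.p6, in Python 3.11.15. Peaks overlapped where they shared at least 1 bp. Members, lists and tests were chosen with earlier results of these data known. Named members were those called or with at least 1 CPM on average, and the kidney genes among the rest. Foxa2, Foxa3, Foxd2, Foxl1, Foxn1, Foxn4, Foxo6, Sox2, Sox7, Sox10 and Sox13 fall outside this rule and were given values or singled out after their values were seen. Per list and direction, the called genes with the smallest adjusted p were named, up to 3. Counts cover all 63 members; values of 1 member and of 2 listed genes are not reported here, and the figures leave that member out.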

Additional observations from a re-analysis of the deposited data

How the results depend on the processing

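Of 449 refits of single tested members, 437 kept their direction and their side of the threshold, 7 lost a call and 5 gained one, and no called member changed direction. The calls that moved were those of Foxq1, Sox4, Sox13, Foxj3 and Foxp4. With only genes of at least 1 CPM in all 6 libraries, 4 members were higher and 3 lower, since that filter leaves fewer genes to test. Leaving out each library in turn gave 11 to 12 higher and 6 to 7 lower members. DESeq2 called 12 higher and 8 lower. With a replicate block 11 members were higher and 6 lower, the lost call being Foxq1 (adjusted p = 0.0581). Of the other genes named, Fendrr (0.0553), Tbx18 (0.0691), Ret (0.0539), Klf4 (0.092), Slc26a4 (0.0555), Col27a1 (0.061) and Alb (0.0675) lost theirs with the block; deviations of libraries with the same number correlated at -0.036, 0.008 and 0.014, so the numbers are not taken to pair the libraries. With peaks of at least 5-fold enrichment only, 11 members had a start-site peak in mK4 and 7 in mK3; with a window of 10 kb 33 had one in mK4.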
